A study of Mus musculus with 4 samples.

Results

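Shared regions in gene deserts are accessible chromatin regions that the forelimb bud lists of 2 embryonic stages had in common and that lie far from every gene start. They were chosen by a rule that used the measured lists: an E9.5 region on an autosome was kept if it overlapped an E10.5 region by 1 bp or more and if its centre lay 100 kb or more from every protein-coding transcription start. The rule found 3131 regions, which is 10.7% (95% interval 10.4 to 11.1%) of the 29208 shared autosomal E9.5 regions and belongs to a list of 42613 E9.5 regions in all. Their partners were 3115 distinct regions of the E10.5 list, which held 46765 regions. For comparison, 12338 shared regions were gene-near distal, with a centre more than 2.5 kb but less than 100 kb from a start, and 13739 were promoter-proximal, within 2.5 kb of a start. In the deserts, 2323 E9.5 regions had no counterpart at E10.5 and 5865 E10.5 regions had none at E9.5.

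The assay was ATAC-seq, which reads out open chromatin from the places where a transposase can insert sequencing adapters. The embryos of both stages were labelled wild type, of the strain NMRI. The study's methods also call control littermates that carry Prrx1-Cre, a transgene active in limb bud mesenchyme, wild type, and whether these embryos carried it is not given in the sources used here. Each of the 2 biological replicates per stage was the forelimb bud pair of 1 embryo. The samples titled e9.5 were taken at E9.75 according to the protocol and kept some attached trunk, whereas the protocol of the E10.5 samples names forelimb buds and their tissue label adds hindlimb buds. Stage and trunk tissue therefore cannot be told apart. Each stage was deposited as 1 list combined from both replicates, so no value below has an error between embryos, the sequencing depth is unknown and no test between stages could be made. Intervals are 95% intervals that cover counting error only and treat regions as independent. Of the autosomal limb regulators on a list, 85 of 92 had a region within 2.5 kb of a start in both lists, but so had 54 of 62 trunk regulators and 81 of 90 neuronal adhesion and synapse genes. This count therefore does not tell the tissues apart.

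Gene deserts are long stretches without protein-coding genes. Many deserts beside developmental regulators hold enhancers, which are sequences that bind transcription factors and raise the transcription of a gene over long distances. In limb buds, such remote enhancers drive patterning genes, for example those of the HoxD cluster, whose flanking deserts are among the best studied regulatory landscapes. CTCF, a zinc finger protein that shapes chromatin loops, also binds far from genes, and some deserts hold promoters of long noncoding RNAs and microRNAs. An accessible region is a candidate for any of these, and accessibility alone does not tell them apart or name the gene that is controlled.

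The sequences of 7 regions are given first because the results turn on them. Each is the mm9 plus strand around the centre of the E9.5 region, read from the genome, with matches to the short motifs described below in capitals unless stated otherwise. The Klf12 region is 1 of 3 that had a score of 3100 at both stages. It spans chr14:100682388-100686690, is printed for chr14:100684390-100684688 and has 1 match to the MEIS-PKNOX motif.
Klf12 region: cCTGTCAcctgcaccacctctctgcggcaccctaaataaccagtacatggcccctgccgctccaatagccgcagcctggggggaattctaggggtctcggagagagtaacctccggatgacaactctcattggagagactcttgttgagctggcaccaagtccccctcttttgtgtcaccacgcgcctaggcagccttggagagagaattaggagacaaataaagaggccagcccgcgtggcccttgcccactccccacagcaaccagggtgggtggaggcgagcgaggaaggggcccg
The Sntg1 region is the highest-scoring one at the start of a noncoding RNA, here the lincRNA Gm16899 at 158 bp. It spans chr1:7386758-7389323, is printed for chr1:7387891-7388189 and has 1 MEIS-PKNOX match, on the minus strand.
Sntg1 region: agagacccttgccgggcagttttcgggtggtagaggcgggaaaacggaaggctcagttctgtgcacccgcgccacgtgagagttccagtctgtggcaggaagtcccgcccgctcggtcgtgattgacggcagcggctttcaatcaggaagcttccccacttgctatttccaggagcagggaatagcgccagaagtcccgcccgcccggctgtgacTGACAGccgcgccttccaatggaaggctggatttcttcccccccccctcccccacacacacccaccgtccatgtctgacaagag
The Cited2 region had the largest rise in rank from E9.5 to E10.5. It spans chr10:16794235-16795049, is printed for chr10:16794493-16794791 and has 2 matches to the AP-1 motif and 1 to the SOX motif.
Cited2 region: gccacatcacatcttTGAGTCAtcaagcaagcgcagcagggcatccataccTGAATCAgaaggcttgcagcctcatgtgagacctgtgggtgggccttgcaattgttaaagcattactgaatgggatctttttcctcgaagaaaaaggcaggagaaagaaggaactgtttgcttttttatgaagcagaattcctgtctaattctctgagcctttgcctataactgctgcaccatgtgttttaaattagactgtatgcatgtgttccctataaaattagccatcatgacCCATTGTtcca
The Mtx2 region had a large rise as well and lies in the desert on the Mtx2 side of the HoxD cluster. It spans chr2:75277578-75278388, is printed for chr2:75277834-75278132 and has 1 MEIS-PKNOX match.
Mtx2 region: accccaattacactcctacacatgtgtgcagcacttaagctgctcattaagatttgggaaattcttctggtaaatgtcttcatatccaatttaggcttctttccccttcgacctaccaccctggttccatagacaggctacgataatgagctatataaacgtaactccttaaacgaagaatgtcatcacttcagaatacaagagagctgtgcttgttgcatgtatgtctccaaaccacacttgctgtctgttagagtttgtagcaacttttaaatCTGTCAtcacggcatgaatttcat
The Rapgef5 region had the largest fall. It spans chr12:118589794-118592012, is printed for chr12:118590754-118591052 and has 2 neighbouring MEIS-PKNOX matches. The printed stretch lies outside the E10.5 partner, which spans chr12:118591207-118592006.
Rapgef5 region: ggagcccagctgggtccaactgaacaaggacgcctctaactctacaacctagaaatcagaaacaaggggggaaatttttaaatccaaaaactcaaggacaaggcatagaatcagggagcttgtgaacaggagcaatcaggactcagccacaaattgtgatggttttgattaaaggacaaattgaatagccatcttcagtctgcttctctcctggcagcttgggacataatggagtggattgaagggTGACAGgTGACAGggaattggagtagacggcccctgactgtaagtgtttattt
The Fign region is the highest-scoring one with a match to the core of the CTCF motif, which is in capitals. It spans chr2:63539800-63541309 and is printed for chr2:63540405-63540703.
Fign region: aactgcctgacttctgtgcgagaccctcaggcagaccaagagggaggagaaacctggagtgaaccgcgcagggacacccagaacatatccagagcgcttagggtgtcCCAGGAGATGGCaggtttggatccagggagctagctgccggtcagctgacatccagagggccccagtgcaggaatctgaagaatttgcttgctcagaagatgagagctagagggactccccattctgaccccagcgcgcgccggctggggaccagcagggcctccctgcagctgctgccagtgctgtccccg
The Mir9-2 region is centred 24 bp from the annotated start of this microRNA. It spans chr13:83876924-83879947, is printed for chr13:83878286-83878584, and its capitals mark the 23 bases of mature miR-9-5p, as RefSeq gives them, at chr13:83878426-83878448.
Mir9-2 region: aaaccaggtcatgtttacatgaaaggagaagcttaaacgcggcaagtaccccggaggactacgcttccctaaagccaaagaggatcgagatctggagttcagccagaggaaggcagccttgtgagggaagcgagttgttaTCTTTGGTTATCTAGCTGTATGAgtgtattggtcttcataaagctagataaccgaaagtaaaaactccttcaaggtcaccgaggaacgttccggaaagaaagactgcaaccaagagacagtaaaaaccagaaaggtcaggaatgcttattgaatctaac

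In their form the desert regions resembled the gene-near distal regions more than promoters. Their median width was 959 bp (949 to 971 bp), against 982 bp for gene-near distal and 1660 bp for promoter-proximal regions. The partners matched closely: the median overlap covered 97.7% of the E9.5 region and 93.2% of the E10.5 region, the centres lay a median of 47 bp apart, and only 22 regions (0.703%, 0.464 to 1.06%) spanned 2 or more E10.5 regions. Partners of desert regions were a median of 35 bp wider than the E9.5 region, whereas those of gene-near distal and promoter-proximal regions were narrower, with median differences of -37 bp and -135 bp. The median GC content within 150 bp of the centre was 48.2% (47.8 to 48.5%), lower than the 51.5% of gene-near distal and the 64.8% of promoter-proximal regions, but higher than the 39.2% of 85487 windows of that length placed every 10 kb across the same deserts. The ratio of observed to expected CpG was 0.253 (0.247 to 0.261) and that of promoter-proximal regions 0.777. Desert regions thus lay in sequence that was richer in GC than its surroundings without the CpG density of promoters.

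The authors scored a region by its p-value from MACS, the peak caller, taking the better replicate and multiplying the negative log10 by 10. The score depends on depth and cannot be compared between stages as such. It was turned into a percentile, the rank of a region within its own autosomal list. At E9.5 the desert regions had a median score of 196.43 (190.63 to 202.71) and a median percentile of 40.4 (39.2 to 41.7). Their partners had a median score of 270.31 (260.89 to 281.19) and a median percentile of 54.2 (53.0 to 55.5). The median difference was 10.9 percentile points (9.74 to 12.03), the middle 50% of differences lay between -6.11 and 29.5, and 2105 of 3131 regions (67.2%, 65.6 to 68.9%) ranked higher at E10.5. The median difference was 2.63 (2.21 to 2.98) for gene-near distal regions and -1.65 (-1.79 to -1.47) for promoter-proximal regions. On this scale the desert regions as a group moved up in rank, the gene-near distal regions moved less and promoters hardly at all.

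A difference of 20 percentile points was used to count single regions. Of the desert regions, 1141 (36.4%, 34.8 to 38.1%) rose by this much, while the share over all 29208 shared autosomal regions was 14.3%. The share was 21.4% (20.7 to 22.1%) for gene-near distal and 2.96% (2.68 to 3.25%) for promoter-proximal regions. Falls of this size were seen in 411 desert regions (13.1%, 11.99 to 14.4%), where the share over all shared regions was 13.3%. A region above percentile 80 cannot rise by 20 points, and 130 desert, 841 gene-near distal and 7330 promoter-proximal regions lay there at E9.5. Only 25 desert regions (0.798%) reached the highest 10% of the E9.5 list, against 2.10% of gene-near distal and 14.3% of all shared regions. In the E10.5 list 159 partners (5.08%, 4.36 to 5.90%) did so, against 4.68% (4.32 to 5.06%) and 15.6%. The ranks of partners were also only loosely tied, with a Spearman correlation of 0.333 over 3131 desert regions, 0.518 over 12338 gene-near distal and 0.866 over 13739 promoter-proximal regions. The points of these correlations are regions that share libraries, and promoters span a wider range of scores.

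**Figure D1:**
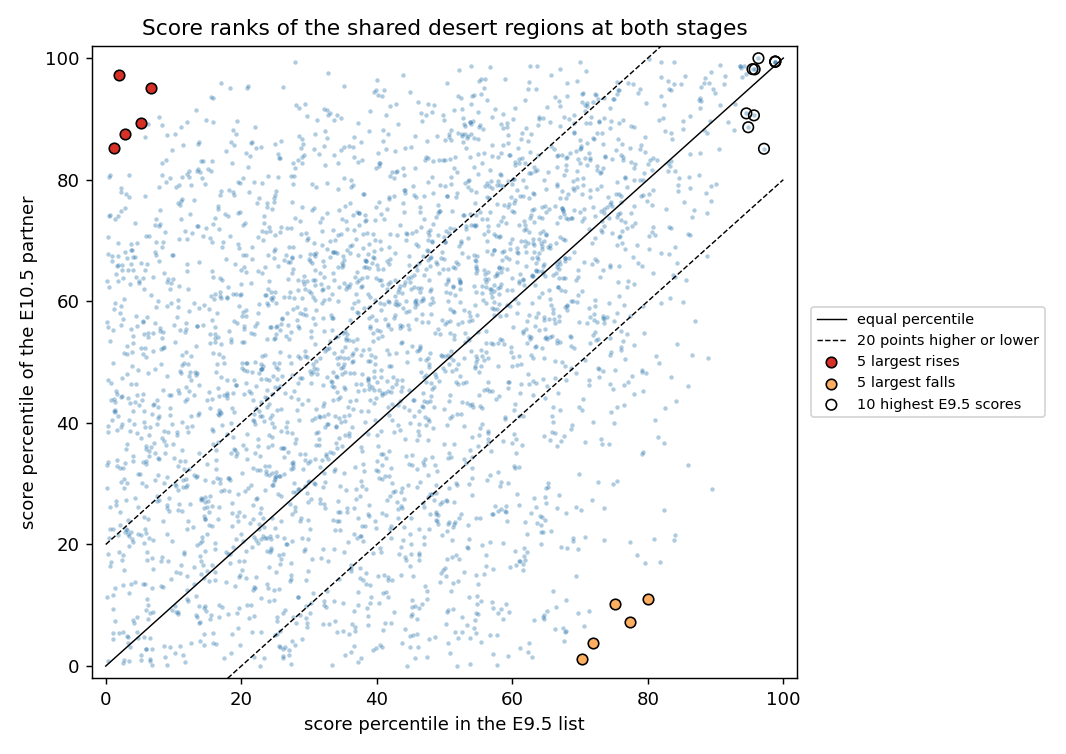
Score percentile of each of the 3131 shared desert regions in the autosomal E9.5 list (x axis) and of its E10.5 partner (y axis), with 1 blue point per region. The solid line marks equal percentiles and the dashed lines 20 points; 1141 regions lie on or above the upper and 411 on or below the lower dashed line, and red, orange and open points mark the 5 largest rises, the 5 largest falls and the 10 highest E9.5 scores.

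The percentiles of the partners were also compared within bands of the E9.5 percentile. A band limits the change it can show, since a region at the bottom of a list can hardly fall and one at the top can hardly rise. Desert regions in the lowest 20% of the E9.5 list (698 regions) had partners with a median percentile of 42.1, while gene-near distal regions from the same band had partners at 29.2 and promoter-proximal regions at 25.04. In the band from 40 to 60 the medians were 56.6, 47.0 and 41.7. In the band from 60 to 80, with 603 desert regions, the medians lay close together, at 66.3, 65.7 and 67.5. In the highest 20%, which held 130 desert regions, the order was turned, with medians of 82.6, 87.1 and 90.2.

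GC content moved with the rank difference in all classes. In desert regions with up to 40% GC the median difference was 21.6 points (16.3 to 27.4), between 45 and 50% it was 13.9 (11.6 to 15.8), and above 60% it was -2.99 (-8.93 to -0.515). In each of 6 bands the desert median stood above that of gene-near distal regions, which was 13.8, 7.74 and -5.21 in the bands named, but the intervals overlapped in the lowest band and in both bands above 55% GC. The share of regions that rose by 20 points or more was 40.3% (37.4 to 43.3%) in desert and 28.4% (26.8 to 29.96%) in gene-near distal regions between 45 and 50% GC. Weighted to the GC content of the desert regions, a comparison chosen after the values were seen, 26.5% of gene-near distal regions rose, which is between their own 21.4% and the 36.4% of the desert regions. The part of GC content in the rank differences was not tested.

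**Figure D2:**
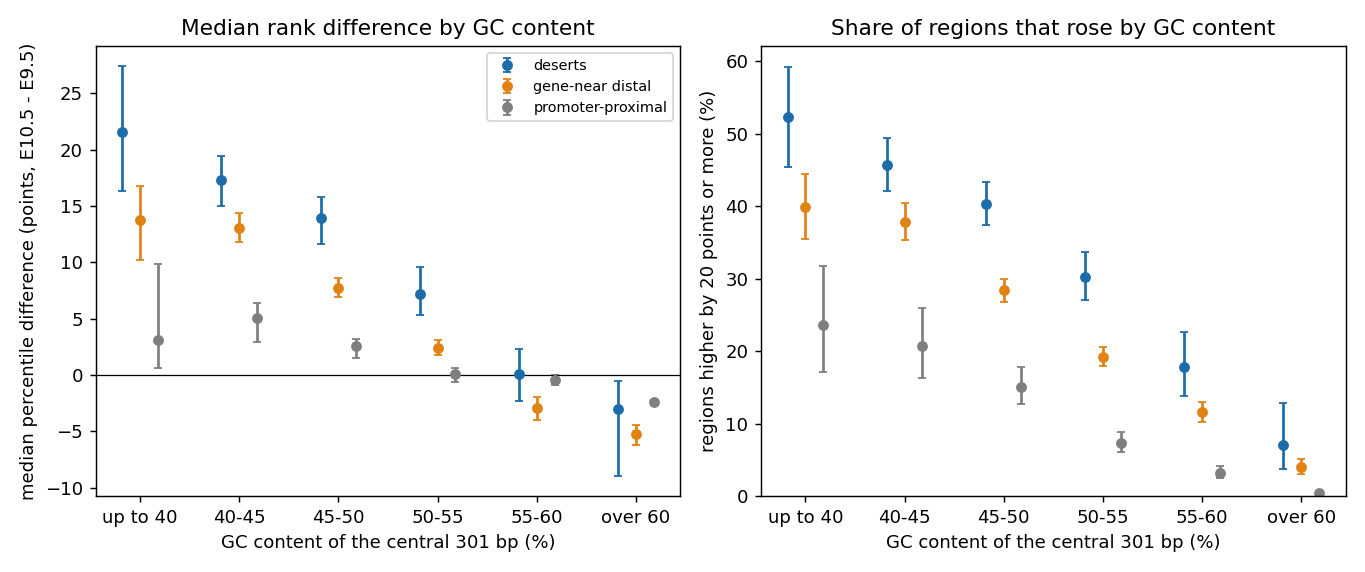
Left, median percentile difference (E10.5 minus E9.5, points) and right, share of regions that rose by 20 points or more (%), by GC content within 150 bp of the centre (%), for desert (blue), gene-near distal (orange) and promoter-proximal (grey) shared regions; bars are 95% intervals for counting error. The desert medians decline from 21.6 to -2.99 points with GC content and the desert shares from 52.3% to 7.09%, above the gene-near distal value in each of the 6 bands.

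The 10 highest-scoring desert regions at E9.5 kept a high rank at E10.5. The lowest E10.5 percentile among them was 85.1. A score of 3100 or more, which 360 shared regions had in both lists, was reached at both stages by 3 of them, each with exactly 3100. The first is the widest desert region, 6512 bp at chr17:39979604-39986115 between Gm20516 and Pgk2, the gene of a testis phosphoglycerate kinase, with 72.1% GC and the annotated pseudogene AY036118 at 2913 bp. The second is the Klf12 region printed above, 135.5 kb from the start of this Krüppel-like transcription factor gene, and the third the Sntg1 region, 231.5 kb from Pcmtd1 and 1073 kb from Sntg1, which encodes a syntrophin. The region in the body of Eif4e3, 255.5 kb from the start of the forkhead gene Foxp1, had scores of 2797.16 and 950.06, and a region 206.2 kb from Mef2c, a MADS box transcription factor gene, had 2588.87 and 3220.51. A region 122.5 kb from Fat3, a gene for an atypical cadherin, had 2474.22 and 2596.02. Scores of 2460.44 and 1294.99 belonged to a region 672 kb from Nr2f1, an orphan nuclear receptor gene, scores of 2295.95 and 1151.32 to a 6106 bp region within Ptprn2, and scores of 2250.96 and 1324.88 to the start of the lincRNA A230028O05Rik between Lpp and Tprg. The remaining one, at chr12:3109555-3110484 near the start of the chromosome, had scores of 2418.96 and 2606.45, but 73.4% of the 31-base words in its centre occurred more than once in the genome, with a median of 21 copies. Only 11 of the 3131 desert regions (0.351%) had at least 50% such words. Words were counted over the assembled chromosomes only, so sequence with further copies missing from the assembly would not be seen. This limit also holds for the widest region, between Gm20516 and Pgk2, whose share of such words was 0%.

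The 5 largest rises began at an E9.5 percentile of 6.64 or lower. The Cited2 region, 648.4 kb from the start of this gene for a transcriptional coregulator, went from a score of 79.23 to 2302.29, which is from percentile 1.99 to 97.3. A region in Mgat4c, a glycosyltransferase gene, rose from 100.21 to 1810.29, and one 127.6 kb from Fign, a gene for a microtubule-severing enzyme, from 83.75 to 1078.92. The Mtx2 region rose from 74.32 to 955.18, and a region in Cdh13, a cadherin gene, from 94.62 to 1198.38. The partner was wider in all 5 of them, as in the Cited2 region, where it spanned chr10:16793960-16796058. The Nmbr to Cited2 desert, examined after these values were seen, held 12 shared regions, and the neighbour at 620.9 kb rose by 49.2 points, while regions at 492.8 and 244.3 kb fell by 33.5 and 43.6 points.

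The 5 largest falls had scores between 608.42 and 1008.68 at E9.5. The Rapgef5 region, 164.0 kb from the start of this gene for a Rap exchange factor, went from 878.76 to 98.35, and its 2219 bp were met by the partner only at the right end. A region 103.8 kb from Srek1, a splicing factor gene, fell from 608.42 to 72.89. The region 114.9 kb from the forkhead gene Foxn2 fell from 1008.68 to 106.05, one 149.2 kb from Ubl3 from 660.54 to 85.78, and one 141.1 kb from Zmiz1, a coactivator gene, from 788.64 to 104.42. In each case the E10.5 partner was narrower than the E9.5 region.

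The rule on distance drew a sharp line through a continuum. The nearest regions inside it were 100.136 kb from C530025M09Rik, with scores of 139.52 and 488.01, 100.149 kb from Rpl38, with 239.74 and 144.18, and 100.172 kb from the homeobox gene Irx4, with 681.43 and 675.75. Just outside were regions 99.972 kb from Sntn, with 624.14 and 640.97, 99.959 kb from Pdha2, with 1427.73 and 540.02, and 99.917 kb from 2610044O15Rik, with 1035.33 and 1597.78.

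Shared regions became sparser with distance. The median distance to the nearest start was 188 kb (184 to 193 kb). Beyond 500 kb lay 264 regions (8.43%), beyond 1 Mb 31 (0.990%), and the farthest was 2196 kb from Pik3c3. Counted per Mb of sequence at a given distance, shared regions thinned out from 5.59 (5.33 to 5.87) between 100 and 200 kb to 4.15 (3.84 to 4.47) between 200 and 300 kb, 2.89 (2.64 to 3.15) between 300 and 500 kb, 1.49 (1.31 to 1.70) between 500 and 1000 kb, and 0.518 (0.352 to 0.735) farther out. E9.5-only regions thinned out as well, from 4.11 to 0.635 per Mb, and E10.5-only regions from 8.36 to 3.16. The median GC content declined along with distance from 48.8 to 44.9%. The median rank difference was 9.91 points in the nearest class, 16.1 between 500 and 1000 kb and 12.7 in the farthest class, which held 31 regions.

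Most desert regions were intergenic. The centres of 727 (23.2%, 21.8 to 24.7%) lay in the body of a protein-coding gene, which at this distance means in a long gene, and 16 (0.511%) lay in an exon. In all, 340 genes held 1 or more. Most were counted in Gm20388, an annotated gene model of 4435 kb (19 regions), in Ptprn2 (16), in the RNA-binding protein gene Celf4 (13) and in Nrxn3, Rad51l1 and Sox6 (9 each). The regions in Gm20388, with a median rank difference of -23.1 points, included all 10 of the desert beyond Foxc2 and all 7 of that between Fam92b and Gse1, both described below. The median rank difference was 10.8 points (8.23 to 13.4) inside genes and 10.9 (9.61 to 12.4) between them, so the position in or between genes was not accompanied by a difference in rank that exceeded the intervals.

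Starts of other gene types lay within 2.5 kb of 101 desert regions (3.23%, 2.66 to 3.90%), against 5.99% (5.58 to 6.42%) of gene-near distal regions. They were lincRNAs and processed transcripts (28 regions each), microRNAs (18), pseudogenes (11) and small RNAs. The median E9.5 percentile of these 101 regions was 47.8 and that of the others 40.2, their median rank difference was 3.54 points against 11.1, and 5 of them were in the highest 10% of the E9.5 list. Among the strongest were the starts of Gm16899, Gm17547 next to Mir9-2, A230028O05Rik and Gm11818. The last lies between Fam92a and Runx1t1, 735 kb from the nearest coding start, and scored 2148.79 and 2180.66.

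Within 10 kb of an annotated microRNA lay 46 desert regions, of which 18 belonged to a named one. Mir9-2, which encodes the neural microRNA miR-9, had 5 of them, Mir137 had 4, Mir153 3 and Mir205 2. Around Mir137 the 4 regions ranked higher at E10.5 by between 7.34 and 25.6 points. Around Mir153 the scores reached 1361.22 at E9.5, and differences ranged from -14.9 to 33.5 points.

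The deserts themselves were next taken as units. A desert was the interval between neighbouring protein-coding starts, and its core the sequence 100 kb or more from both. There were 2287 deserts with 855 Mb of core, and 1148 of them (50.2%) held a shared region, which gives 3.66 regions per Mb (3.53 to 3.79). The distribution was uneven: 484 deserts held 1 region, while 189 deserts with 5 or more held 1360 regions (43.4%) in 20.7% of the core. Density fell with size, from 6.88 per Mb (6.38 to 7.42) in cores of up to 0.2 Mb to 1.18 (1.015 to 1.36) in cores of more than 2 Mb. Across chromosomes it lay between 2.80 per Mb on chromosome 15 and 5.35 on chromosome 13.

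The desert with the most shared regions was that between Ptprn2, which encodes a phosphatase-like protein of secretory vesicles, and Rapgef5, with 20 regions in a core of 0.831 Mb. Percentiles ran from 4.01 to 94.8 at E9.5 and from 2.66 to 95.9 at E10.5, and 16 regions lay inside Ptprn2. By 20 points or more, 6 regions rose and 2 fell, where 36.4% of all desert regions rose and 13.1% fell. The Mir153 gene lies in this desert, and the strongest regions on both sides of it, 667.9 and 859.3 kb from the left start, scored 2295.95 and 1599.2 at E9.5. Next came the deserts between the recombination gene Rad51l1 and Zfp36l1, an mRNA decay factor (17 regions), between Gm12824 and Gm12830 (16), and between Nr2f1 and Arrdc3 (16 in a core of 2.48 Mb). The deserts between Thap1 and the zinc finger gene Zfp703, between Tpm3-rs7 and the glypican gene Gpc5, which also holds the microRNA host Mir17hg, and between Zeb2, a repressor of epithelial genes, and the activin receptor gene Acvr2a had 15 each. The deserts beside Celf4, Sox4 and Sox6 had 13 each, the SOX genes encoding transcription factors of progenitor and cartilage cells. In 9 of these 10 deserts the median region ranked higher at E10.5, by between 0.622 points beside Sox4 and 16.6 points beside Zeb2, and beside Celf4 the median was -10.03.

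The densest deserts with at least 5 regions were short. Between the imprinted genes Peg3 and Usp29, 6 regions shared a core of 0.0307 Mb, which is 195 per Mb. The deserts of Neurl1a and Sh3pxd2a (141 per Mb), Gm12824 and Gm12830 (74.4), Haao and the mRNA decay gene Zfp36l2 (64.1), and Fam92b and Gse1 (62.8) followed. Between Neurl1a and Sh3pxd2a 0 of 5 regions ranked higher at E10.5 and between Fam92b and Gse1 1 of 7, with medians of -14.5 and -20.9 points.

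Distances between neighbouring regions were described as well. Whether regions lay closer together than the uneven density between deserts would give was not tested. Regions were joined into a run when neighbouring centres were at most 50 kb apart, and 1595 regions (50.9%, 49.2 to 52.7%) had such a neighbour, while 1536 stood alone. The median gap to the next region on a chromosome was 158 kb, and the middle 50% of gaps lay between 31.2 and 753 kb. Runs of 5 or more numbered 38 and held 268 regions. The largest had 16 regions in 195.6 kb between Gm12824 and Gm12830, with scores from 69.47 to 973.74 and 7 rises against 1 fall. It was followed by 13 regions in 174.8 kb inside Celf4, 12 in 189.9 kb between the chromatin remodeller gene Chd7 and Clvs1, 11 in 161.3 kb between Tpm3-rs7 and Gpc5 and 11 in 181.6 kb between Prl5a1 and Sox4. In the run between Tpm3-rs7 and Gpc5, 5 regions rose and 0 fell by 20 points or more, while inside Celf4 2 rose and 5 fell. Over all desert regions 36.4% rose and 13.1% fell by this much, and over all shared regions 14.3% and 13.3%. Regions with and without a neighbour had similar ranks, with median differences of 10.1 and 11.7 points.

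Close neighbours moved together to a small degree. The Spearman correlation of the rank differences of adjacent regions was 0.297 over 360 pairs up to 10 kb apart, 0.153 over 640 pairs between 10 and 50 kb, and 0.0405 over 647 pairs between 50 and 200 kb. GC content of the same pairs correlated by 0.399, 0.330 and 0.311. These correlations are descriptions across regions of 2 lists.

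Single deserts departed from the general rise in both directions. They were singled out after their values were seen, among the 189 deserts with 5 or more shared regions, of which 159 had a median difference above 0. The highest median was that of the desert between Tbx18, a T-box gene of the mesenchyme, and Nt5e. Its 5 regions scored 117.46, 102.49, 221.24, 129.65 and 149.4 at E9.5 and 1609.15, 1279.18, 1710.74, 806.1 and 285.59 at E10.5, a median rise of 61.0 points. All 5 rose by 20 points or more, where 36.4% of all desert regions rose and 13.1% fell by this much. In this desert 9 regions were found only at E10.5 and 0 only at E9.5, while all deserts together held 5865 and 2323. The lowest median was that of the desert beyond the forkhead gene Foxc2, -22.5 points over 10 regions. There 6 regions fell by 20 points or more and 0 rose, and the strongest region, 185.4 kb from the start, went from 620.47 to 875.75, the other region that ranked higher differing by 0.889 points. In this desert 9 regions were found only at E9.5 and 2 only at E10.5, and the GC content of the shared regions had a median of 55.6%, against 48.2% near Tbx18.

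In 27 of the 189 deserts each shared region ranked higher at E10.5, and in 2 none did, while 67.2% of all desert regions ranked higher. The 27 included deserts beside Bmp2, a ligand, Dkk2, a WNT antagonist, Gas1 and Gli2, a coreceptor and a transcription factor of hedgehog signalling, and Meis1 and Sp8, transcription factor genes of the limb bud, and also deserts beside the neuronal genes Robo1, Lsamp and Cntn6. Beside Gli2, 8 regions lay in a core of 0.155 Mb. Of these, 2 rose from 114.43 to 852.34 and from 118.61 to 547.84, and the other 6 ranked higher by between 1.92 and 11.1 points. The desert from Mtx2 to Hnrnpa3, on the telomeric side of the HoxD cluster, was divided instead. The regions 220.6, 232.7 and 268.9 kb from Mtx2 scored 309.78, 103.67 and 189.91 at E9.5 and 105.15, 83.53 and 104.62 at E10.5, whereas those at 340.4, 555.2 and 570.9 kb went from 129.96, 102.17 and 74.32 to 661.48, 326.91 and 955.18. In percentile the nearer 3 ranked lower at E10.5, with differences of −44.7, −5.26 and −28.7 points, and the farther 3 ranked higher, with 56.8, 52.4 and 84.03 points.

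Beside Mef2c, 12 regions were shared, of which 9 formed a run of 29.54 kb around Mir9-2 and the lincRNAs Gm17547 and C130071C03Rik. The E9.5 scores in the run were between 271.41 and 2588.87, so that the weakest of them stood at percentile 51.6. Their rank differences lay between -49.1 and 10.8 points, with a median of 1.04. The Mir9-2 region printed above went from 1340.52 to 366.85 and its right neighbour from 341.34 to 101.83, while the next region to the right rose from 1292.49 to 1949.57. Adjacent regions in 1 compact cluster thus differed in direction.

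**Figure D3:**
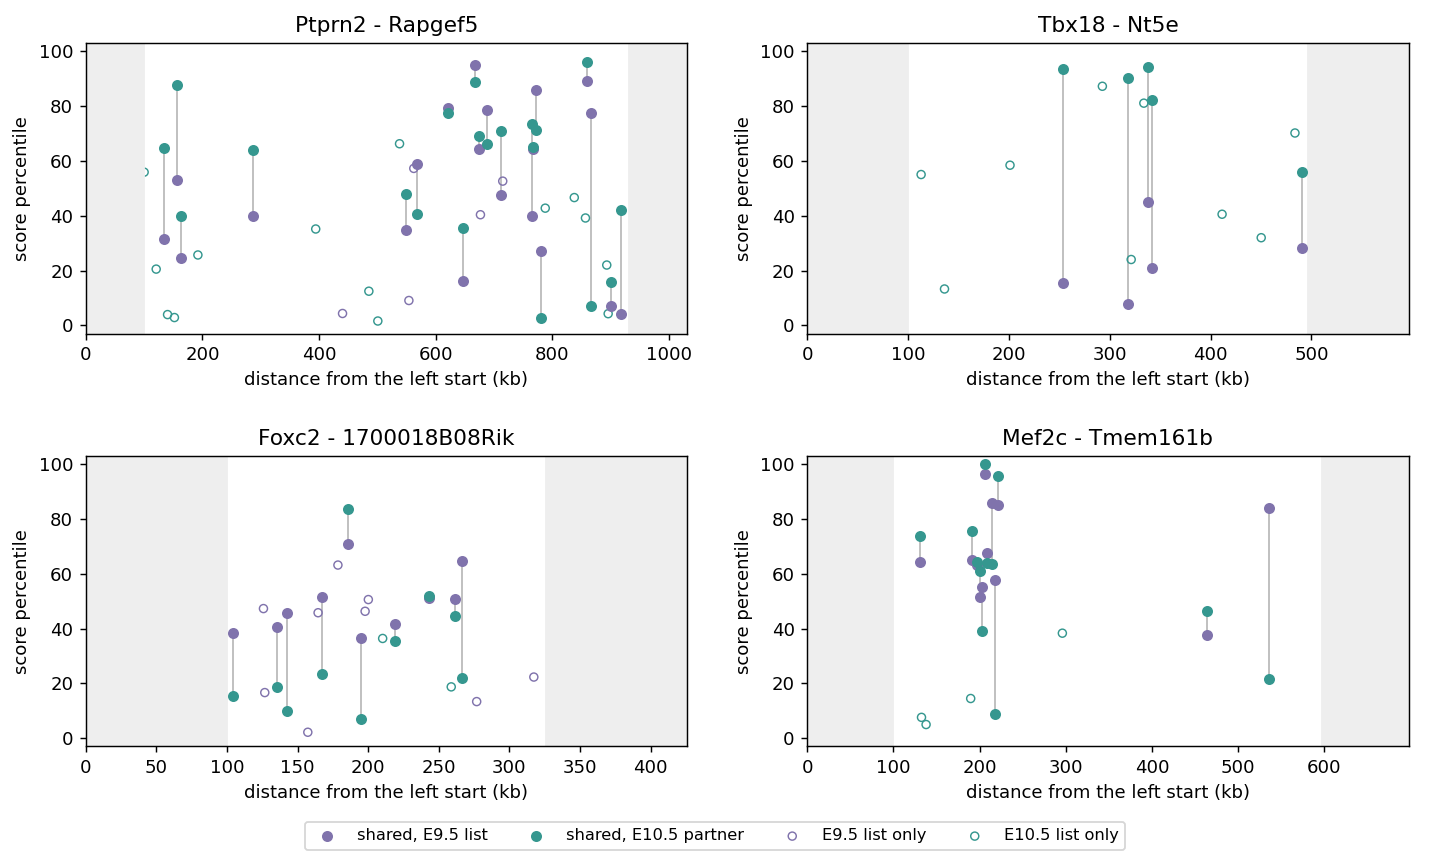
Score percentile (y axis) against the distance from the left protein-coding start in kb (x axis) for the deserts between Ptprn2 and Rapgef5, Tbx18 and Nt5e, Foxc2 and 1700018B08Rik, and Mef2c and Tmem161b. Filled purple and green points joined by a line are a shared region at E9.5 and its E10.5 partner, open points are regions of 1 list only and grey areas lie within 100 kb of a start; the lines point up in the Tbx18 desert, with a median of 61.0 points, and mostly down in the Foxc2 desert, with -22.5.

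Flanking genes were grouped by 5 lists, and the regions were counted per Mb of core in the deserts that a list gene flanks. Beside limb bud and limb mesenchyme regulators there were 240 regions in 91 deserts, 7.19 per Mb (6.31 to 8.16). Genes of the WNT, FGF, retinoic acid and Notch pathways had 62 regions in 36 deserts, 7.77 per Mb (5.96 to 9.96), those of the BMP, TGF-beta and SMAD pathway 62 in 28 deserts, 5.42 per Mb (4.15 to 6.95), and somite, neural tube and other trunk regulators 68 in 32 deserts, 5.08 per Mb (3.95 to 6.44). The order of these 4 lists depended on the starts used. With starts of every gene type, trunk regulators had 10.9 per Mb (6.82 to 16.5), limb regulators 7.97, the BMP list 6.63 and the WNT list 6.32, while neuronal genes stayed at 1.51. Deserts beside neuronal adhesion and synapse genes were the poorest, with 239 regions in 184 deserts and 1.51 per Mb (1.33 to 1.72), and deserts beside none of the listed genes had 3.90 (3.75 to 4.06). Neuronal deserts were also the poorest in regions found at 1 stage only, with 1.24 per Mb at E9.5 and 5.52 at E10.5, against 5.60 and 10.99 beside limb regulators. The higher density beside limb regulators was thus seen in shared and unshared regions. A flanking gene is not shown to be the target of a region.

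Core size differed between the lists, with a median of 0.276 Mb beside limb regulators and 0.456 Mb beside neuronal genes, so the densities were also compared within classes of size, a choice made after seeing the data. In cores of 0.5 to 1 Mb there were 6.04 regions per Mb (4.93 to 7.34) beside limb regulators, 1.89 (1.41 to 2.48) beside neuronal genes and 3.91 (3.61 to 4.23) beside genes of no list. In cores of 0.2 to 0.5 Mb the values were 9.82 (7.85 to 12.1), 3.79 (2.81 to 5.01) and 5.33 (4.95 to 5.73). In cores of up to 0.2 Mb beside limb regulators, however, the density was 6.79 (4.09 to 10.6), which could not be distinguished from the 6.79 (6.25 to 7.36) of deserts without a listed gene. Beside neuronal genes it was 3.36 (1.92 to 5.46) there. In cores of 1 to 2 Mb it was 1.25 (0.927 to 1.65) beside neuronal genes and 2.60 (2.36 to 2.85) beside genes of no list. In cores of more than 2 Mb these 2 could not be distinguished, with 0.999 (0.783 to 1.26) and 1.04 (0.822 to 1.29). Such cores held 73 of the 239 regions beside neuronal genes.

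**Figure D4:**
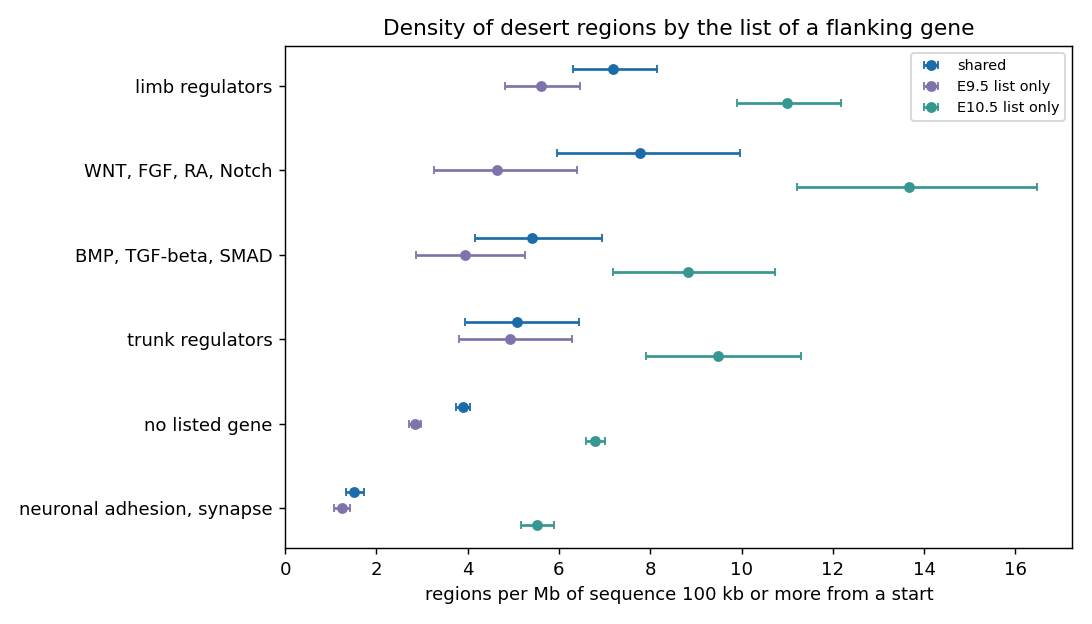
Regions per Mb of desert core (x axis) in deserts flanked by a gene of each list (y axis), for shared regions (blue), regions of the E9.5 list only (purple) and of the E10.5 list only (green), with exact Poisson 95% intervals. Shared regions range from 1.51 per Mb beside neuronal adhesion and synapse genes to 7.77 beside WNT, FGF, retinoic acid and Notch genes, with deserts beside no listed gene at 3.90.

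The counts per gene are the sum over all deserts that its starts flank. Among limb regulators Nr2f1 had 20 regions, the chondrogenic factor gene Sox6 13, and Sall3 and Tshz3, both transcription factor genes, 11 each. In the BMP list they were Acvr2a with 15, Bmp7 and its extracellular modulator Bmper with 8 each, and the inhibitory Smad7 and Bmp2 with 6 each. In the desert beside Bmp7 the 8 regions shared 0.187 Mb, 42.9 per Mb. In the list of WNT, FGF, retinoic acid and Notch genes, Tcf7l2, a nuclear effector of WNT signalling, had 8, Dkk2 and the Notch ligand gene Jag1 7 each, and Fgfr2 and Rarb, receptor genes for FGF and retinoic acid, 4 each. Of the trunk regulators, the neural factor gene Pou3f2 had 10, Isl1 8, Eya1 7, Nkx6-1 5 and Six2 4. Epha3 and Dcc, genes for axon guidance receptors, had 10 each, Nrxn3 and Pcdh17 9 each and Odz2 8. Beside Bmp2, 28 regions were found only at E10.5 and 4 only at E9.5, while all deserts together held 5865 and 2323 such regions.

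The rank differences were also compared between the lists. The median difference was 9.93 points (5.45 to 15.6) beside limb regulators, 12.6 (2.27 to 20.2) beside BMP pathway genes, 16.5 (6.99 to 24.9) beside WNT, FGF, retinoic acid and Notch genes, 14.5 (7.503 to 21.6) beside trunk regulators and 15.4 (12.6 to 19.3) beside neuronal genes. All of these intervals overlapped each other. The median was 9.97 (8.68 to 11.4) beside no listed gene and 10.9 (9.74 to 12.03) over all desert regions. Both of these intervals lay below that of the neuronal genes. Rises of 20 points or more made up between 37.1 and 43.5% of the regions of a list. The share was 36.4% over all desert regions, 35.4% beside no listed gene and 14.3% over all shared regions. Falls were seen in 16.7% (12.5 to 21.9%) of the regions beside limb regulators and in 8.79% (5.82 to 13.1%) of those beside neuronal genes, with intervals that overlapped. Over all desert regions the share of falls was 13.1%, and over all shared regions 13.3%.

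Short motifs were searched on both strands within 150 bp of the centre. The CTCF core (CCA, any 2 bases, then AGNNGGC) was found in 272 desert regions (8.69%, 7.75 to 9.73%). This is about the 9.16% of all autosomal regions of both lists, below the 16.1% (15.5 to 16.8%) of gene-near distal shared regions, and above the 2.58% (2.01 to 3.31%) and 4.04% (3.57 to 4.58%) of the desert regions found only at E9.5 or only at E10.5. In windows placed every 10 kb in deserts the share was 0.890%. With only the higher-scoring 50% of each list it was 4.51% (3.30 to 6.13%) of the desert regions. Weighting the gene-near distal regions to the GC content of the desert regions left their share at 17.4%. The share fell with the distance from the nearest start, from 9.74% between 100 and 200 kb to 6.01% between 500 and 1000 kb.

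Desert regions with the CTCF core ranked lower at both stages and fell less often than those without. Their median percentile went from 27.6 at E9.5 to 43.8 at E10.5, that of the others from 41.8 to 55.3. They fell by 20 points or more in 4.04% of cases (2.27 to 7.10%), against 14.0% (12.8 to 15.3%), rose in 37.1% (31.6 to 43.0%), against 36.4% (34.6 to 38.2%), and the ranks of their partners correlated by 0.522 over 272 regions and by 0.308 over the other 2859. A region below percentile 20 cannot fall by 20 points. The Fign region printed above, with scores of 1047.19 and 672.76, was the strongest of them.

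Among the other motifs, those of homeodomain factors were more frequent in desert than in gene-near distal regions. The same held for the E-box CAGATG described below, for SOX (5.05% against 3.30%) and for TEAD (21.0% against 18.6%). HOX-PBX (TGATTNAT) was found in 11.1% (10.03 to 12.2%) of desert and 5.70% (5.30 to 6.12%) of gene-near distal regions, 1.03% of promoter-proximal ones and 5.58% of all regions of both lists. MEIS-PKNOX (CTGTCA) was found in 27.4% (25.9 to 29.0%), 22.9% (22.1 to 23.6%), 14.5% and 21.2% of these classes. The paired homeodomain motif (TAATTA) followed with 10.7% (9.63 to 11.8%), 6.84% (6.41 to 7.30%), 1.65% and 7.05%. Weighted to the GC content of desert regions, the gene-near distal shares were 6.87% for HOX-PBX, 23.6% for MEIS-PKNOX and 8.63% for the paired motif, each still below the desert share. The windows every 10 kb, with less GC, held the paired motif in 12.5%, HOX-PBX in 6.52% and MEIS-PKNOX in 17.8%.

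The shares of some motifs differed between shared regions and those of 1 stage. The paired homeodomain motif was found in 9.26% (8.14 to 10.502%) of the E9.5-only and 18.7% (17.7 to 19.7%) of the E10.5-only desert regions, of which the latter had a median GC content of 42.9%, against 48.2% in the former and in the shared regions. The SOX motif (ACAATGG) went the other way, with 9.43% (8.31 to 10.7%) at E9.5 only, 5.05% (4.33 to 5.87%) in shared regions and 3.85% (3.39 to 4.38%) at E10.5 only, although E9.5-only and shared regions had the same median GC content, and its share of all regions was 3.48%. The GATA motif (AGATAAG) was in 5.34% (4.495 to 6.33%), 2.97% (2.43 to 3.63%) and 2.68% (2.29 to 3.12%), against 2.55% of all regions. In windows placed every 10 kb in deserts the shares were 5.91% for SOX and 4.69% for GATA, above those of the shared regions. HOX-PBX was found in 11.6% and 11.9% of the stage-specific regions, close to the 11.1% of shared ones. MEIS-PKNOX was found in 30.8% of the E9.5-only and 25.6% of the E10.5-only desert regions, on either side of the 27.4% of shared ones.

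The E-box CAGATG, read by bHLH factors, was the most frequent motif, with 33.95% (32.3 to 35.6%) of desert regions, 27.7% of gene-near distal regions and 24.3% of all regions. It was likewise in 33.6% of the E9.5-only and 35.2% of the E10.5-only desert regions, and in 21.5% of windows placed every 10 kb. Desert regions with it had a median rank difference of 15.6 points (13.2 to 17.3) and those without 9.26 (7.55 to 10.6). With the paired homeodomain motif the difference was 16.3 (13.5 to 19.1), against 9.99 (8.88 to 11.3), at a median GC content of 45.8%, against 48.5%. The GC-rich BMP element (GGCGCC) was found in 3.61% (3.01 to 4.32%), 7.72% and 25.9% of desert, gene-near distal and promoter-proximal regions and in 12.01% of all regions. Weighted to the GC content of desert regions, the gene-near distal share was 5.23% and the promoter-proximal share 6.64%, and windows placed every 10 kb in deserts had 0.423%. The palindrome GTCTAGAC was found in 7 desert regions (0.224%, 0.108 to 0.461%), in 0.218% of these windows and in 0.301% of all regions. The remaining motifs were TEAD (GGAATG) in 21.0%, AP-1 (TGANTCA) in 8.75%, FOX (TGTTTAC) in 4.60%, the CCAAT box (CCAATCA) in 4.06%, the SP GC box (GGGGCGGGG) in 1.95% and ETS (ACCGGAAGT) in 0.0639% of desert regions, with 16.4%, 7.23%, 3.56%, 4.59%, 6.64% and 0.531% of all regions. The windows every 10 kb held them, in the same order, in 16.5%, 9.35%, 4.75%, 4.19%, 0.255% and 0.0281%. AP-1, FOX and the CCAAT box were thus not more frequent in desert regions than in these windows. Matches of AP-1 and of the paired homeodomain motif can overlap those of HOX-PBX, and a match is a stretch of letters and not a binding site.

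**Figure D5:**
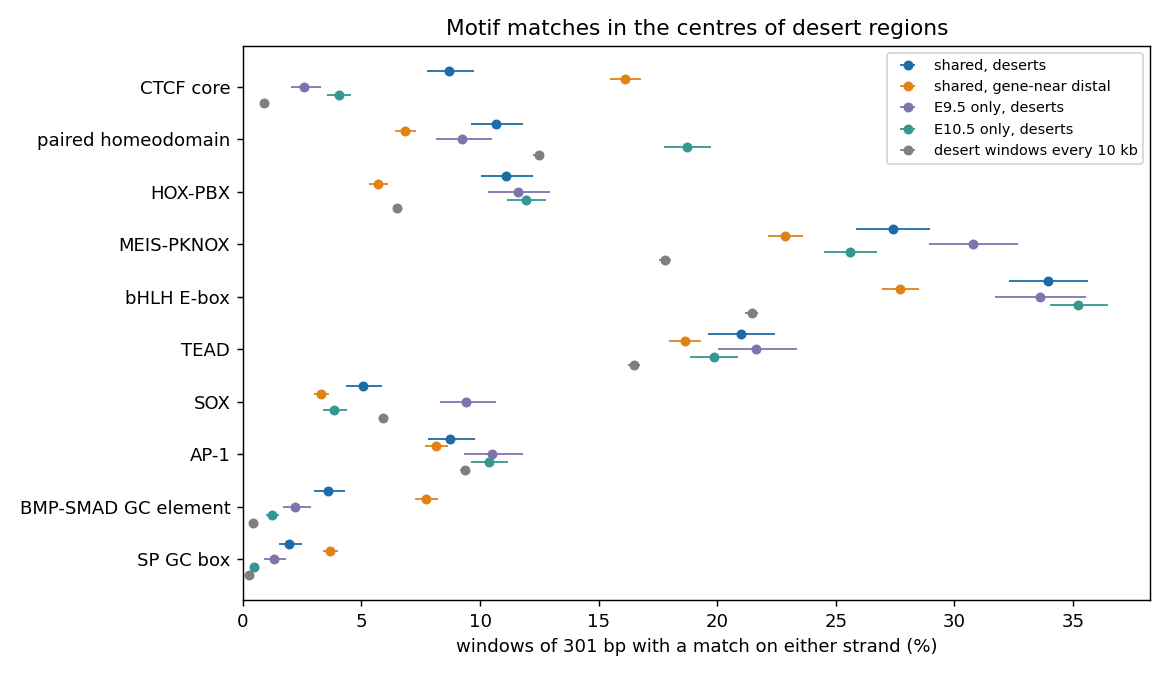
Share of windows, 150 bp to each side of a centre, with a match on either strand (x axis, %) for 10 of the 15 motifs (y axis), with Wilson 95% intervals, in shared desert regions (blue), shared gene-near distal regions (orange), E9.5-only (purple) and E10.5-only (green) desert regions, and windows every 10 kb in deserts (grey). The CTCF core is at 8.69% in shared desert regions between 16.1% in gene-near distal and 2.58% in E9.5-only desert regions, and HOX-PBX at 11.1% is above the 5.70% of gene-near distal regions.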

How the data were processed

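ATAC-seq of 4 samples, 2 per stage, was used as deposited, in 1 combined peak list per stage. According to the submitters' processing notes, reads were mapped to mm9 with Bowtie 1.1.0 and peaks called with MACS 1.4. The authors combined the replicates by joint evidence, with a stringent p-value of 1e-10 and a weak one of 1e-06, and the deposited score is 10 times the negative log10 of the best p-value, so that it grows with depth. The depth is unknown, and 0 columns of single samples were left unused. Starts came from GENCODE vM1 on mm9, with 70064 starts of 22380 protein-coding genes. Where a region met several E10.5 regions, the best-scoring was its partner. Percentiles were taken within each autosomal list, with ties averaged. GC content and motifs were read within 150 bp of the centre, and words of 31 bases were counted over the genome to find repeats.

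No test was made, because a list per stage has no replicate error. Shares carry Wilson intervals, medians order-statistic intervals and densities exact Poisson intervals, at 95% and for counting error only. The members, the gene lists and the motifs were chosen with earlier results of these data known. By rule, the text names the 10 highest E9.5 scores, the 5 largest rises and falls, the 10 deserts with the most and the 5 with the densest regions, the 5 largest runs and the leading genes of each list, of which 1 is not reported here. Anything else named was chosen after its values were seen. Alternatives were another overlap, distance, set of starts, score cut, partner, percentile base, step, gap and window, and leaving out each autosome. Scripts were tested on simulated data and run in Python 3.11.15 with numpy 2.4.6, scipy 1.17.1, pandas 2.3.3 and numba 0.67.0.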

Additional observations from a re-analysis of the deposited data

Results flagged for a closer look

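Regions of the sex chromosomes were outside the rule for members, and their signal was therefore not part of the comparisons. On the X chromosome, 36 of 656 shared regions (5.49%, 3.99 to 7.50%) lay 100 kb or more from a protein-coding start, against 10.7% on the autosomes, where single chromosomes ranged from 5.96% (chromosome 11) to 17.1% (chromosome 13). These 36 regions had median scores of 236.96 in the earlier and 232.29 in the later list, with ranges of 72.5 to 1098.34 and 91.93 to 1260.32. On the Y chromosome, 12 of 17 shared regions did so.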

How the results depend on the processing

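No paired analysis was possible because the deposited lists merge both replicates of a stage, and leaving out a replicate was not run for the same reason. Leaving out each autosome in turn gave median rank differences of 10.2 to 11.3 points and shares of rises of 35.9 to 37.0%. Under the alternative settings 123 values were labelled unchanged and 55 moved. Where the reported value had an interval, unchanged values lay inside it. The number of regions and the correlation had no interval, so their labels rest on no error. Of the unchanged values, 20 were the lowest and 20 the highest from leaving out an autosome. The moved values include those with other steps and gaps, which change what is counted. These counts are therefore not a measure of robustness. The causes of the moves were not tested.

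With a distance of 200 kb or more, 1437 regions (4.92% of shared regions) remained, with a median width of 947 bp, 47.2% GC, a partner percentile of 55.6, a rank difference of 12.1 points and 38.6% rises. Then 15.9% lay in gene bodies, 44.2% within 50 kb of another and 7.45% held the CTCF core. The density was 2.60 per Mb in all, 3.51 beside BMP, 5.48 beside WNT, 1.18 beside neuronal and 3.33 beside trunk genes.

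With the higher-scoring 50% of each list, ranked anew, 843 regions (5.48%) remained, with a median width of 1281 bp, 49.2% GC, percentiles of 30.4 and 47.8, a difference of 13.4 points, 40.1% rises, 11.5% falls and a correlation of 0.250. Then 19.1% lay in gene bodies, 4.63% near another start, 25.03% within 50 kb of another and 4.51% held the CTCF core. The density was 0.986 per Mb in all, 1.56 beside limb, 1.398 beside BMP, 2.38 beside WNT, 1.49 beside trunk and 0.424 beside neuronal genes, so that neuronal deserts were again the poorest.

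With starts of every gene type, 1811 regions (6.20%) remained, at 3.31 per Mb in all and 10.9 beside trunk genes, with 48.3% within 50 kb of another and a correlation of 0.322. Percentiles among shared regions only were 27.9 and 41.1, with 11.2% falls. A reciprocal overlap of at least 50% gave 3.48 per Mb, 49.1% within 50 kb and a correlation of 0.368. Steps of 10 and 30 points gave 51.1 and 24.5% rises and 21.0 and 7.57% falls. Gaps of 25 and 100 kb gave 37.1 and 64.4% with a neighbour. Over the whole region, GC content was 45.1% and the CTCF core share 12.7%. Without the regions of mostly repeated words, an alternative added after seeing the data, all 20 values counted as unchanged.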
